A study of Mus musculus with 12 samples.

Results

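The comparison asks how tumours that received temozolomide together with an antibody against PD-1 differed in gene expression from tumours that received only 1 of these agents. The 3 Combination arrays were set against the 6 single-agent arrays, 3 of TMZ and 3 of Anti-PD-1, with equal weight for each agent, so 9 of the 12 arrays of the series enter the difference. The measured features were the 22180 genes that the array names by exactly 1 symbol, each through its brightest probe set. The 3 Control arrays served for the estimate of the spread and as a level to look back to.

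All mice were C57BL/6 males of 8 weeks that carried an orthotopic graft of GL261, a mouse glioblastoma line, in the brain, and RNA came from the tumour mass on day 16. TMZ mice received 30 mg/kg temozolomide intraperitoneally, Anti-PD-1 mice 10 mg/kg antibody intravenously at 2 injections per week, and Combination mice both. The labels name no treatment for Control, no dosing days and no clone or isotype of the antibody. They do not say that each array is a separate mouse, so the p-values measure the spread between arrays, which may be technical. The model is limited to 1 cell line, and the labels do not give the share of brain in each mass. Signals of different probe sets cannot be set against each other, so the levels of brain and tumour markers do not give that share. The glial markers Gfap and Olig2 averaged 9.24 and 8.44 on the log2 signal scale over the 12 arrays, and the neuronal marker Snap25 12.24. The signals carry no call of presence or absence. In such bulk samples fewer cells of a type and less RNA per cell cannot be told apart.

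Interferon gamma, released by activated T cells and natural killer cells, acts on tumour cells, microglia and macrophages. It switches on guanylate-binding proteins and immunity-related GTPases, which attack pathogen-containing vacuoles, the peptide loading machinery of MHC class I, the MHC class II genes through Ciita, and Cd274, which encodes PD-L1, the ligand of PD-1. Antibodies against PD-1 block the inhibitory signal that PD-L1 gives to T cells, and temozolomide methylates DNA, a damage that Mgmt can reverse.

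No single gene separated the Combination from the single agents after adjustment. Of 22180 genes, 0 (0%) passed an adjusted p of 0.05 in limma, and the smallest adjusted p was 0.442. At an unadjusted p under 0.05, 386 genes were higher (1.74%) and 611 lower (2.75%) in the Combination. Together they were 4.495% of all genes, no more than that threshold lets pass without any difference. All 3 Combination arrays lay above all 6 single-agent arrays for 156 genes (0.703%) and below all 6 for 275 genes (1.24%). With arrays assigned at random, either outcome has a joint probability of 0.0238 (exact permutation test, 84 splits). The shares of both sides together were below this. Groups that lie apart are therefore no support for a difference by themselves, also for the genes named below. The median absolute difference was 0.053 log2 units and the median standard error (SE) of a gene was 0.080.

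What the contrast did hold was an uneven spread of large differences. The Combination lay more than 1 log2 unit above the single agents for 13 genes (0.0586%) and more than 1 unit below for 0. These 13, picked by size after their values were seen, were the immunity-related GTPases Iigp1, Igtp, Gm12250, Gm4841, Gm4951 and F830016B08Rik, the guanylate-binding proteins Gbp8, Gbp10 and Gbp11, the MHC class II chains H2-Aa and H2-Ab1, the oligoadenylate synthetase Oas1g, and Gpnmb, a glycoprotein of phagocytes and pigment cells. Their SEs, from 0.34 to 0.70, were several times that of the median gene. The GTPase families hold near-identical copies, so a probe set of one member can take up signal of another, and single members are uncertain.

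**Figure D1:**
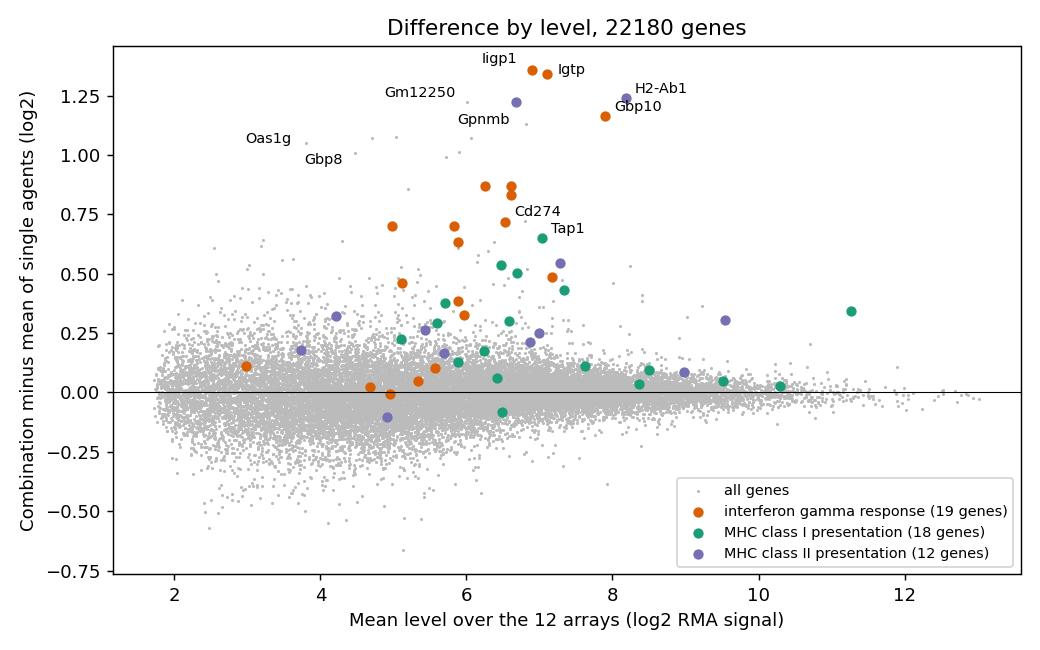
Log2 difference of the Combination from the mean of the single agents (vertical axis) against the mean log2 signal over 12 arrays (horizontal axis), for 22180 genes in grey and 3 gene lists in colour. The 13 genes above 1 log2 unit stand on the upper side, interferon gamma and MHC genes among them, while 0 genes lie below -1.

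By median difference, the interferon gamma list was the furthest displaced of the 48 gene lists. The lists and members were chosen with earlier results of these data known, so neither this rank nor the counts below are independent support. That list holds 3 of the 13 genes that differed by more than 1 log2 unit. Of its 19 measured members, 18 were higher in the Combination, with a median difference of 0.63 log2 units against -0.0043 over all genes. With 1 array left out the median ranged from 0.51 to 0.80. The list's array scores (mean deviation of the members) also had the widest spread within groups of all lists, an SD of 0.44. No member passed the adjusted threshold. Of the 19, 8 had an unadjusted p under 0.05, all on the higher side, against 1.74% of all genes. Members wholly above the single-agent arrays numbered 0, against 0.703% of all genes. Iigp1, a GTPase that coats parasite vacuoles, read 7.41, 5.88 and 6.64 in TMZ, 4.72, 5.54 and 6.57 in Anti-PD-1 and 7.09, 7.61 and 7.74 in the Combination. Only TMZ replicate 1 reached into the Combination range. The difference was 1.36 ± 0.48 (SE), a fold of 2.56 with a 95% interval of 0.31 to 2.40 on the log2 scale. The exact permutation p was 0.0476 (two-sided, 84 splits, smallest possible p 0.0238), and the adjusted p in limma was 0.99996. Since Iigp1 had the largest difference of all genes and was picked after its values were seen, neither interval nor p is independent support.

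Igtp, a regulator of these GTPases on membranes, read 7.71, 5.76 and 7.16 in TMZ, 4.50, 5.98 and 6.82 in Anti-PD-1 and 7.35, 7.73 and 7.89 in the Combination. The same TMZ array again lay among the Combination arrays, and the difference was 1.34 ± 0.54. Gbp10 read 8.76, 6.67 and 7.67 in TMZ, 6.07, 6.52 and 7.54 in Anti-PD-1 and 7.78, 8.75 and 8.58 in the Combination, a difference of 1.16 ± 0.51 in which TMZ replicate 1 was the highest of the 9 arrays. Gbp3 was higher by 0.70 ± 0.26, Irgm2 by 0.87 ± 0.37, Irgm1 by 0.63 ± 0.27 and the transcription factor Irf1 by 0.38 ± 0.17. The T cell attracting chemokines Cxcl9 and Cxcl10, at 0.83 ± 0.49 and 0.87 ± 0.52, had wider errors. Members with little or no displacement were Ido1 (-0.01 ± 0.08), Cxcl11 (0.02 ± 0.12) and Socs1 (0.05 ± 0.10).

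The displacement was not equal against both agents. The list's median was 0.32 against TMZ and 0.94 against Anti-PD-1, contrasts that share the Combination arrays. Between the single agents, 17 of the 19 members were higher in TMZ than in Anti-PD-1, with a median of 0.52, and 4 had an unadjusted p under 0.05 while 0 genes passed limma's adjusted threshold (1000 of all genes at an unadjusted p under 0.05). Array by array, the list's mean deviation was 0.30, -0.51 and -0.17 in TMZ, -1.04, -0.67 and -0.27 in Anti-PD-1 and -0.04, 0.31 and 0.31 in the Combination. Control arrays stood at 0.74, 1.15 and -0.10. For 17 of the 19 members the Combination mean lay between the single-agent and the Control mean.

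**Figure D2:**
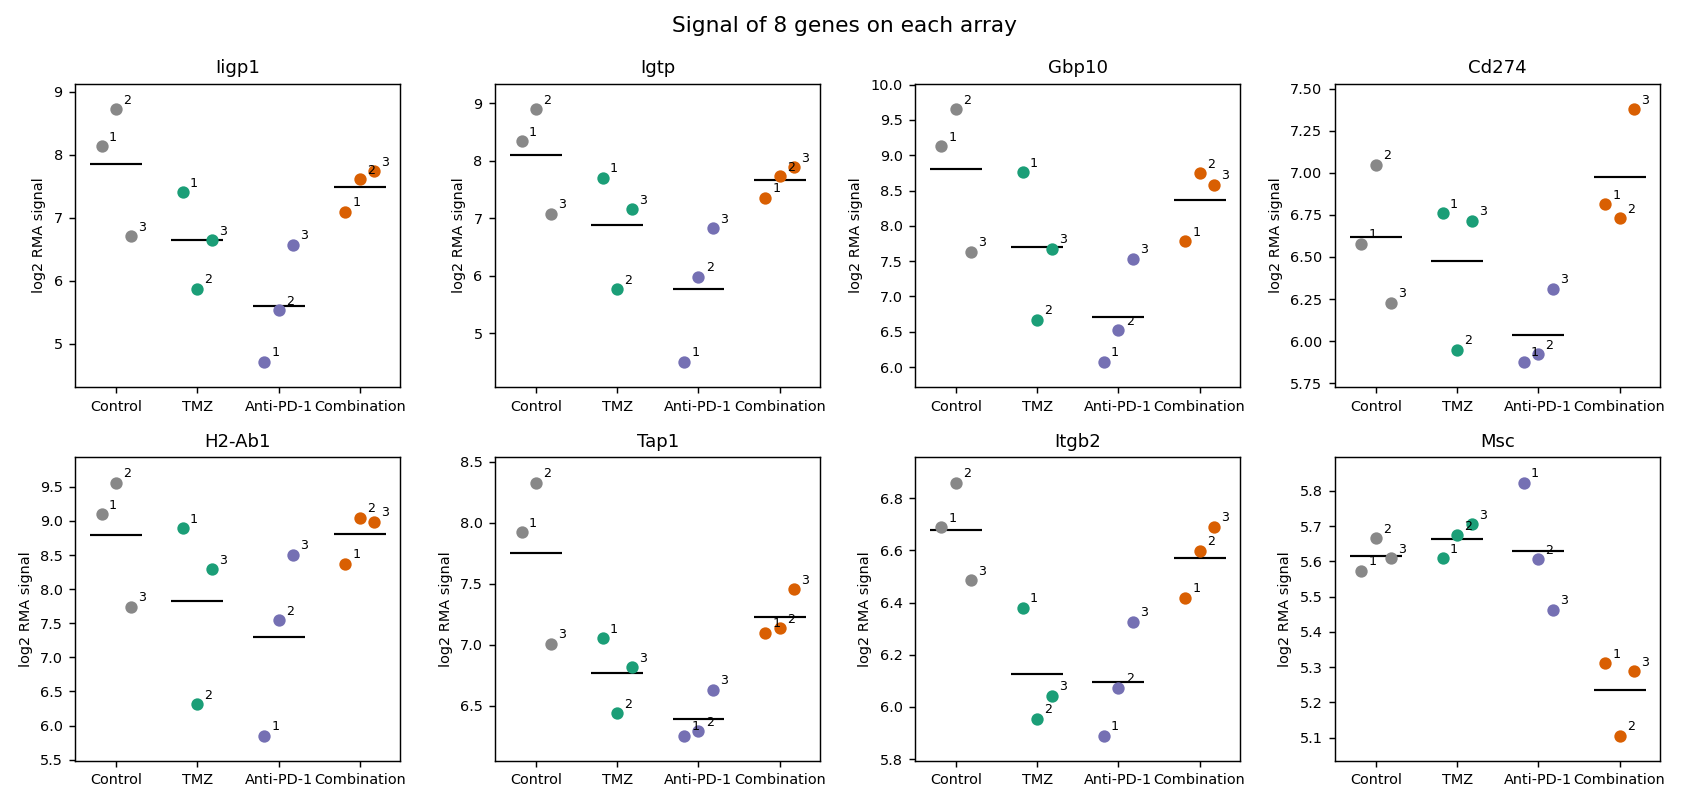
Log2 RMA signal of 8 genes on each of the 12 arrays (points, numbered by replicate) with group means (bars). Iigp1, Igtp, Gbp10 and H2-Ab1 spread widely within TMZ and Anti-PD-1, with TMZ replicate 1 high, whereas the Combination arrays of Tap1 and Itgb2 lie above, and those of Msc below, all 6 single-agent arrays.

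Promoters of some of these genes carry the letters that interferon-activated factors are known to read. The 4 shown here are list members with an unadjusted p under 0.05 and such a match in RefSeq's table (GRCm38.p6). Members on a chromosome left out of the printing are not shown, so a gene missing here may also hold a match. The last 100 bases before the transcript start are printed 5′ to 3′ on the gene's strand, with capitals for the interferon-stimulated response element, searched as TTTCNNTTTC or GAAANNGAAA.
Gbp3, chr3:142559944-142560043, plus strand: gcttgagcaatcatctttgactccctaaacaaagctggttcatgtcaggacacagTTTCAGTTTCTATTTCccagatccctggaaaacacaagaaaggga
Igtp, chr11:58199456-58199555, plus strand: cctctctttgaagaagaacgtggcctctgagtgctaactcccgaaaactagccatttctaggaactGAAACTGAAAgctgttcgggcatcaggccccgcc
Irgm2, chr11:58214877-58214976, plus strand: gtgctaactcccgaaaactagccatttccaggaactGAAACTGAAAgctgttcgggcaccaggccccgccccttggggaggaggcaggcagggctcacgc
Irgm1, chr11:48871421-48871520, minus strand: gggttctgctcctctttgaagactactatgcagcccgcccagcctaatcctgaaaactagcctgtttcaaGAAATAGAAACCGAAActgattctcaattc

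In Gbp3 and Irgm1 the capitals hold 2 overlapping matches, in Igtp and Irgm2 1 each. Over the 250 bases before the start, 8 of the 12 list members with a promoter in the table held this element, against 3.40% of the 16990 array genes with one. The gamma-activated site, searched as TTCNNNGAA, was in 6 of the 12 against 7.82%. In the type I interferon list the response element was in 7 of 18 promoters. It was in 2 of 15 for MHC class I and in 1 of 10 for MHC class II. The interferon lists were written from genes known to respond to interferon, and a match of letters is a description of the window, not a bound site.

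Type I interferon targets, whose products restrict viruses, were shifted the same way by less. Of 26 members, 22 were higher, with a median of 0.29 log2 units (0.18 against TMZ and 0.37 against Anti-PD-1). Higher at an unadjusted p under 0.05 were 2, and 1 lay wholly above the single-agent arrays (1.74% and 0.703% of all genes). That one was Mx1, a dynamin-like antiviral GTPase, which read 3.20, 3.02 and 2.99 in TMZ, 3.14, 3.16 and 3.05 in Anti-PD-1 and 3.43, 3.35 and 3.24 in the Combination, all among the dimmest signals. Its difference was 0.25 ± 0.08, and that of its paralogue Mx2 0.41 ± 0.15. For all 26 list members the Combination mean lay below the Control mean, and for 22 it lay between the single-agent and the Control mean. Oas1g, outside the list, was the only gene of the 13 above 1 log2 unit whose groups did not overlap. It read 3.80, 2.77 and 3.63 in TMZ, 2.81, 2.78 and 3.14 in Anti-PD-1 and 3.84, 4.32 and 4.45 in the Combination (difference 1.05 ± 0.34).

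MHC class I presentation showed smaller and tighter differences. Of 18 members 17 were higher, with a median of 0.20 log2 units that became 0.13 without Anti-PD-1 replicate 1. The list's median was 0.082 against TMZ and 0.32 against Anti-PD-1, and 16 of the 18 were higher in TMZ than in Anti-PD-1. The unadjusted p was under 0.05 for 3 members, and the same 3 lay wholly above the single-agent arrays (1.74% and 0.703% of all genes). They were Tap1 and Tap2, the pair that pumps peptides into the endoplasmic reticulum, and H2-T23, the mouse Qa-1 molecule seen by natural killer receptors. Tap1 read 7.05, 6.44 and 6.82 in TMZ, 6.25, 6.29 and 6.63 in Anti-PD-1 and 7.10, 7.14 and 7.46 in the Combination. The gap between the groups was narrow, since TMZ replicate 1 lay just under the lowest Combination array. Tap1 was higher by 0.65 ± 0.24, H2-T23 by 0.54 ± 0.20 and Tap2 by 0.38 ± 0.16. Against TMZ alone these differences were 0.46, 0.34 and 0.26, and against Anti-PD-1 alone 0.84, 0.73 and 0.50. B2m, the common light chain, was higher by 0.34 ± 0.19 and the classical heavy chain H2-K1 by 0.43 ± 0.33, both with overlapping arrays. The interferon-inducible proteasome subunit Psmb8 gave 0.50 ± 0.24, whereas the chaperones Calr and Pdia3 gave 0.03 ± 0.07 and 0.05 ± 0.07. Control means lay above the Combination for 17 of the 18.

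MHC class II presentation held differences up to 1.24 log2 units with SEs up to 0.70. Of 12 members 11 were higher, median 0.26 log2 units, with 2 higher at an unadjusted p under 0.05 (1.74% of all genes). The list's median was 0.17 against TMZ and 0.37 against Anti-PD-1. H2-Ab1, the beta chain of I-A, read 8.89, 6.32 and 8.29 in TMZ, 5.85, 7.54 and 8.50 in Anti-PD-1 and 8.37, 9.05 and 8.99 in the Combination. Single-agent arrays thus ranged over 3 log2 units and the Combination arrays over less than 1, with a difference of 1.24 ± 0.63. Its partner H2-Aa gave 1.22 ± 0.70. Ciita, the master activator of class II transcription, differed by little but with groups apart, reading 5.68, 5.60 and 5.62 in TMZ, 5.45, 5.52 and 5.59 in Anti-PD-1 and 5.75, 5.70 and 5.78 in the Combination (0.17 ± 0.06). The peptide exchange subunit H2-DMb1 was higher by 0.18 ± 0.06, from 0.29 against TMZ and 0.08 against Anti-PD-1, while the inhibitory H2-Ob was at -0.10 ± 0.06.

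Of the receptor PD-1 and its ligands, PD-L1 had the largest difference. Cd274 read 6.76, 5.95 and 6.71 in TMZ, 5.88, 5.92 and 6.31 in Anti-PD-1 and 6.81, 6.73 and 7.38 in the Combination. All Combination arrays but the second, which lay just below TMZ replicate 1, were above every single-agent array. The difference was 0.72 ± 0.22, a fold of 1.65 (95% interval 0.23 to 1.21, exact permutation p = 0.0476), made of 0.50 against TMZ and 0.94 against Anti-PD-1. Among the 19 interferon gamma genes Cd274 was the 1 member whose Combination mean, 6.97, lay above the Control mean, 6.62, with overlapping arrays. Pdcd1, which encodes PD-1, was dim and differed by 0.16 ± 0.15. The second ligand Pdcd1lg2 stood at -0.07 ± 0.11.

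The checkpoint and costimulatory list as a whole had 17 of 20 members higher, with a median of only 0.072 log2 units. That median was 0.021 without Combination replicate 3, 0.039 without TMZ replicate 2 and above 0.10 without either of the other Combination arrays. By array score it was the only list with all 3 Combination arrays above every single-agent array. They scored 0.0062, -0.00081 and 0.18, against -0.0082 in the highest single-agent array, TMZ replicate 1. The list's 5 members at an unadjusted p under 0.05 were Cd274, Tnfrsf9, Cd96, Cd86 and Icos, all higher (1.74% of all genes). Tnfrsf9, the costimulatory receptor 4-1BB of activated T cells, read 4.65, 4.76 and 4.63 in TMZ, 4.60, 4.60 and 4.70 in Anti-PD-1 and 4.85, 4.85 and 4.99 in the Combination. Its groups did not overlap, and the difference was 0.24 ± 0.08. Cd96 was higher by 0.24 ± 0.08 and Cd86, a ligand of CD28 on antigen-presenting cells, by 0.37 ± 0.16. Ctla4 (0.01 ± 0.13), Havcr2 (0.06 ± 0.11) and Lag3 (0.12 ± 0.11) were close to their errors.

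Lymphocyte lists had small medians. The T cell list had 8 of 16 members higher, against 47.5% of all genes, and a median of 0.0083, and its members differed in sign, Cd3e by 0.04 ± 0.17, Cd8a by 0.06 ± 0.09, Cd2 by 0.29 ± 0.09 and Cd3d by -0.22 ± 0.10. Natural killer genes had 9 of 11 members higher, with a median of 0.025, or -0.0085 without TMZ replicate 2. The T cell median was -0.028 without Anti-PD-1 replicate 3. Klrd1, the CD94 chain of natural killer receptors, was higher by 0.24 ± 0.08 with groups apart. Ifng was at 0.08 ± 0.07, the killer protease Gzmb at -0.06 ± 0.20 and the regulatory T cell factor Foxp3 at -0.25 ± 0.15. Cd3e, the brightest of the T cell genes named here, averaged 5.06 over the 12 arrays, below the median gene of 5.72. B cell markers disagreed, Cd79a being higher by 0.28 ± 0.07 and Cd79b at -0.27 ± 0.10, although the pair forms 1 receptor. The cytotoxic list had 9 of 15 members higher and a median of 0.036, which was 0.078 without Combination replicate 2.

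Myeloid lists differed among themselves. The complement and scavenger list had 15 of 17 members higher, median 0.27 log2 units, and the microglia list 15 of 17, median 0.11. The Combination mean lay below the Control mean for 14 of the 17 complement and scavenger members and 13 of the 17 microglia members. Itgb2, the beta-2 integrin of leukocytes, read 6.38, 5.95 and 6.04 in TMZ, 5.89, 6.07 and 6.33 in Anti-PD-1 and 6.42, 6.60 and 6.69 in the Combination. Its groups were apart, and it was higher by 0.44 than in TMZ and by 0.47 than in Anti-PD-1, or 0.46 ± 0.12 against their mean. Lgals3bp, a galectin-binding glycoprotein, was higher by 0.53 ± 0.20 and the lysosomal protein Cd68 by 0.27 ± 0.12. C1qa, C1qb and C1qc of the first complement component were higher by 0.28 to 0.37 with SEs of 0.17 to 0.18. Marco, a scavenger receptor, was at -0.14 ± 0.05.

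Of the 17 microglia markers, 1 was higher at an unadjusted p under 0.05 and wholly above the single agents (1.74% and 0.703% of all genes). That one was Siglech, which is also on the dendritic cell list. It was higher by 0.26 ± 0.07, reading 6.65, 6.68 and 6.62 in the Combination against 6.14 to 6.53 over the single agents. P2ry12 differed by 0.12 ± 0.08 and Tmem119 by 0.11 ± 0.05. Gpnmb read 7.23, 5.55 and 6.07 in TMZ, 5.09, 5.82 and 5.75 in Anti-PD-1 and 6.32, 7.98 and 6.85 in the Combination. Its difference of 1.13 ± 0.47 leaned on Combination replicate 2, without which it was 0.66. The Control mean of Gpnmb, 8.38, lay above the Combination mean, 7.05. Outside the lists, Lcp2, an adaptor of immune receptor signalling, was higher by 0.27 ± 0.07 and Nr1h3, the liver X receptor of macrophages, by 0.31 ± 0.09. Both were named because their groups lay apart, so that is no support for a myeloid difference. Monocyte and blood-derived macrophage genes had 10 of 16 members higher, median 0.091 (0.018 without Combination replicate 2, 0.048 without Anti-PD-1 replicate 1 and 0.054 without TMZ replicate 2). On each side 2 members had an unadjusted p under 0.05 (of all genes 1.74% higher and 2.75% lower). Among them were Ms4a4c at 0.42 ± 0.16 and the coagulation factor F10 at -0.32 ± 0.10. Alternatively activated macrophage genes had 9 of 14 higher (median 0.028), dendritic cell genes 7 of 13 (0.0059) and neutrophil genes 6 of 14 (-0.023). These 3 medians were 0.0028 without Combination replicate 1, -0.015 without Anti-PD-1 replicate 2 and 0.015 without Anti-PD-1 replicate 1, in that order. The dendritic cell chemokine Ccl22 was higher by 0.37 ± 0.11, whereas the cross-presenting cell receptor Xcr1 was at -0.23 ± 0.09.

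Neuron markers lay on the other side. They were lower in the Combination for 16 of 20, with a median of -0.038, and their array scores were 0.00, 0.02 and 0.03 in TMZ, 0.01, 0.07 and 0.05 in Anti-PD-1, and 0.04, -0.04 and -0.02 in the Combination. With this score as a covariate of the fit, the interferon gamma median was 0.25, type I interferon 0.11, complement and scavenger 0.12, MHC class II 0.19, MHC class I 0.084 and microglia 0.064. Single genes under the same covariate kept their side, Iigp1 at 0.94, Cd274 at 0.55, Tap1 at 0.37 and Gpnmb at 0.54. Glioma and neural progenitor genes had 17 of 21 members higher, median 0.096, or 0.019 with the covariate and 0.050 without TMZ replicate 2. Itga6, a laminin-binding integrin of progenitors, was higher by 0.17 ± 0.05 with groups apart, and the matrix protein Tnc by 0.23 ± 0.10. The neuron score was made from the same arrays, and the Control arrays enter the fit. Such a fit cannot separate tissue content from other differences that go with the score. The part of tissue content in these differences was not tested.

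**Figure D3:**
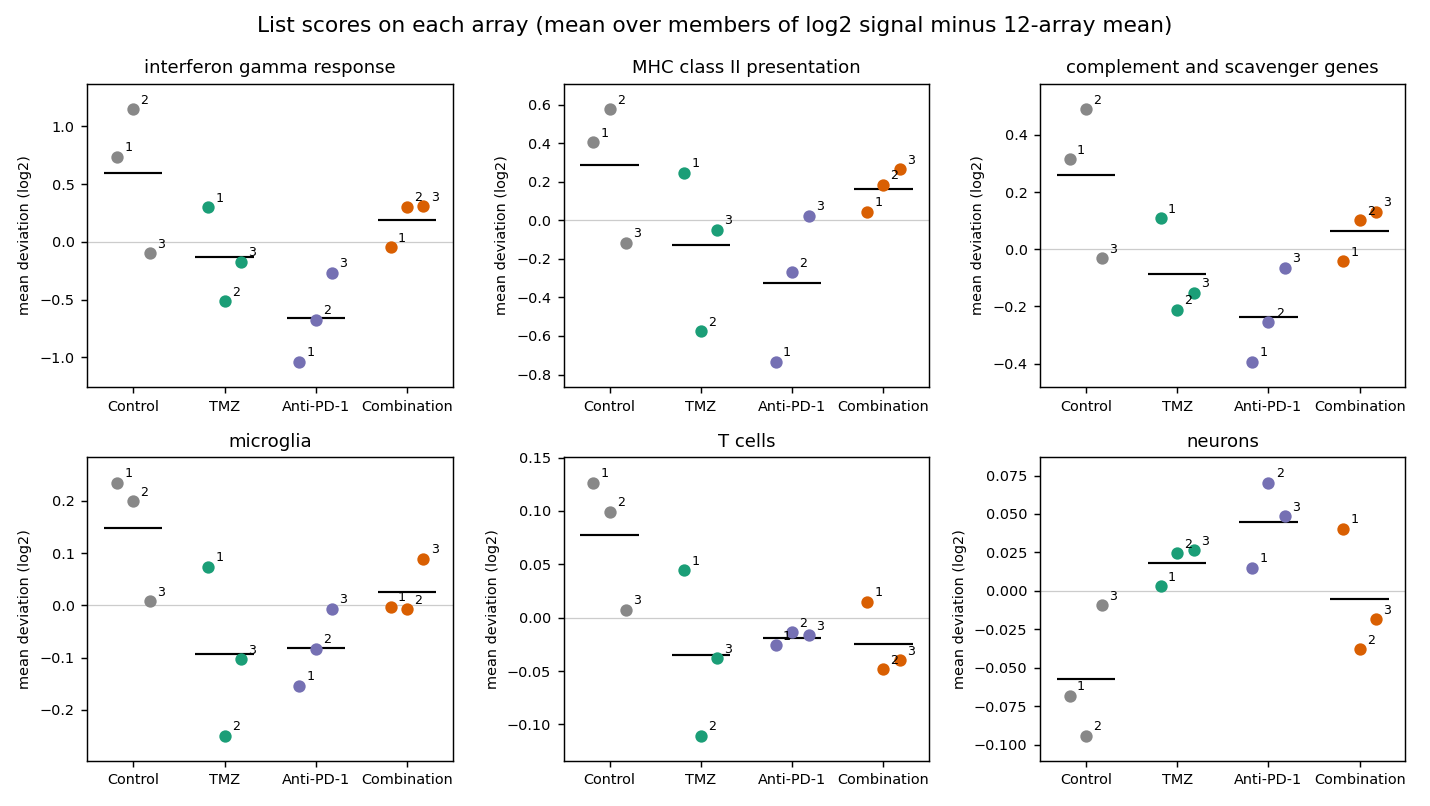
Mean deviation of 6 gene lists from their 12-array mean (log2 units, vertical axis) on each array, with group means as bars. In the interferon gamma, MHC class II and complement lists Anti-PD-1 replicate 1 is the lowest array, Anti-PD-1 replicate 2 and TMZ replicate 2 are the next lowest pair, and Control replicates 1 and 2 are the highest, while the T cell and neuron scales span far less.

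The lists that address temozolomide's damage stood near the background. The p53 target list had 11 of 22 members higher and a median of 0.00, and Cdkn1a, its cell cycle inhibitor, was at -0.12 ± 0.10. DNA repair had 12 of 26 higher and a median of -0.0065. Of the 26, 1 was lower at an unadjusted p under 0.05 and wholly below the single-agent arrays (2.75% and 1.24% of all genes). That one was Fancd2, of the crosslink repair pathway. It read 5.42, 5.21 and 5.45 in TMZ, 5.54, 5.42 and 5.23 in Anti-PD-1 and 5.11, 5.20 and 5.09 in the Combination. The difference was -0.25 ± 0.07. The gap was narrow, with 5.205 in Combination replicate 2 against 5.215 in TMZ replicate 2. Mgmt was at -0.08 ± 0.08 and the proliferation marker Mki67 at 0.07 ± 0.17. Mitosis genes had 21 of 32 higher and a median of 0.068, but -0.059 with the neuron covariate and 0.031 without TMZ replicate 2. For all 32 mitosis genes the Combination mean lay below the Control mean.

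On the lower side the lists differed little, and TMZ replicate 2 weighed on the ones that did. Blood cell genes had a median of -0.12 over 7 members, glucocorticoid-responsive genes -0.063 over 16 and endothelium -0.046 over 22. That array had the highest score of the 12 in each, at 0.40, 0.30 and 0.29, and without it the medians of the glucocorticoid and endothelium lists were -0.0012 and 0.0098 and that of the blood list was nearer 0 than -0.0012. Sgk1, a glucocorticoid-induced kinase, read 8.03, 8.18 and 7.71 in TMZ, 7.97, 8.15 and 7.76 in Anti-PD-1 and 7.70, 7.52 and 7.52 in the Combination. It was lower than both agents by 0.39 ± 0.12, the 1 of 16 list members wholly below (1.24% of all genes). The gap was narrow, with 7.703 in Combination replicate 1 against 7.708 in TMZ replicate 3. The endothelial surface protein Ly6c1 was at -0.50 ± 0.21 and the mural cell genes Acta2 and Higd1b at -0.22 ± 0.09 and -0.22 ± 0.08.

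**Figure D4:**
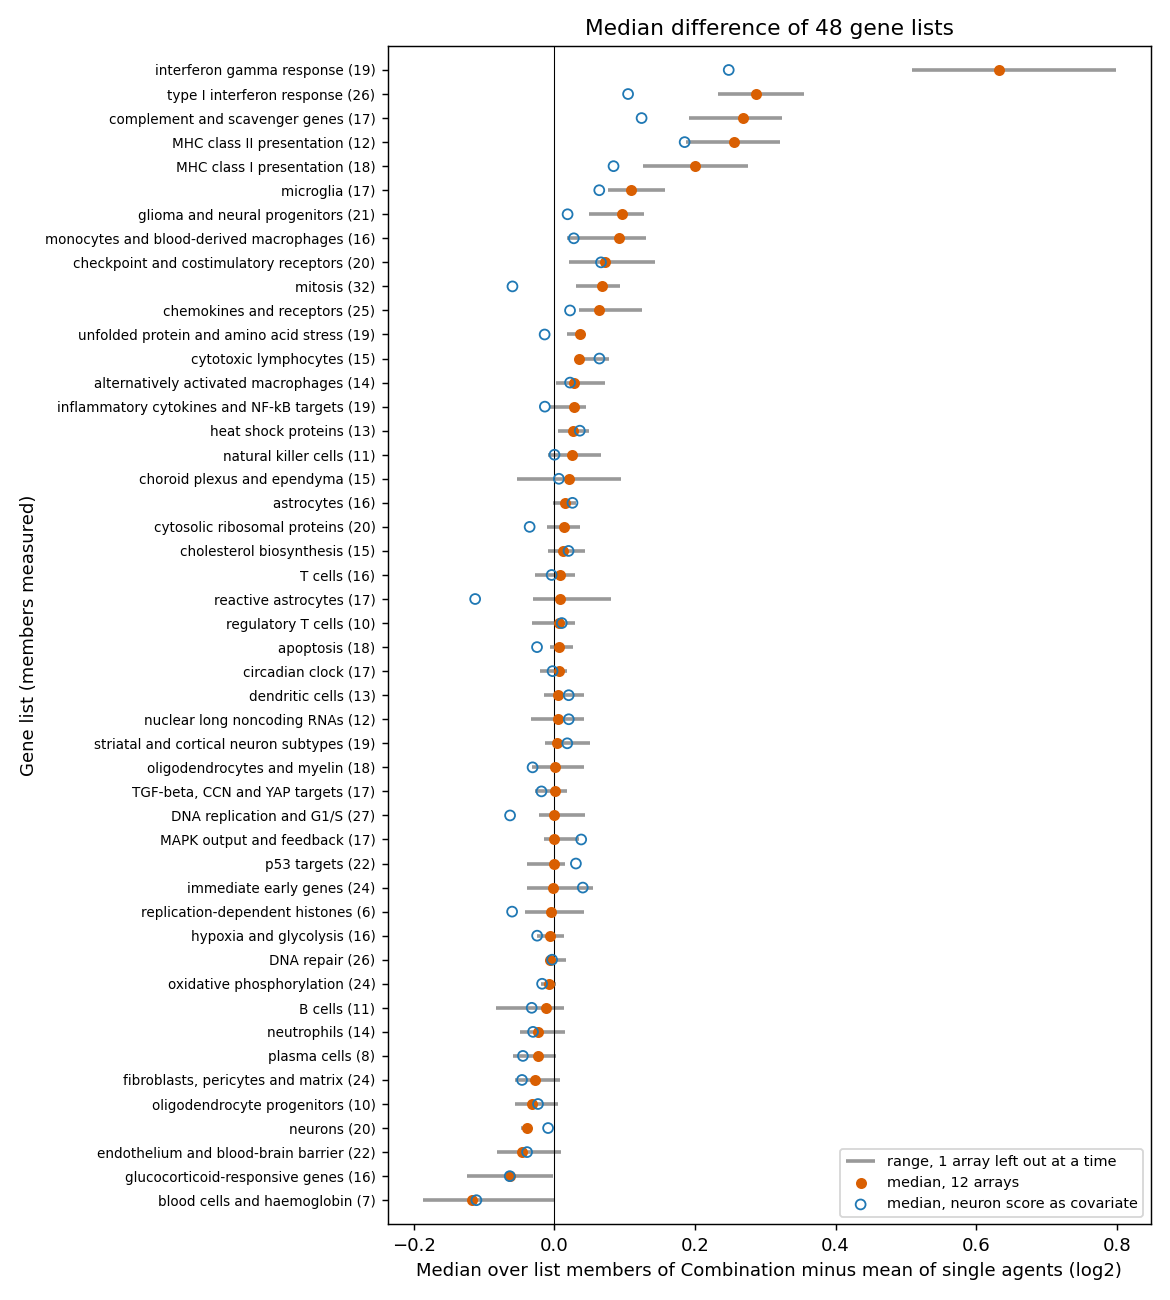
Median log2 difference of the Combination from the mean of the single agents for 48 gene lists (filled points; members measured in brackets), with the range when 1 array is left out (grey lines) and the median with a neuron score as covariate (open points). Interferon gamma stands at 0.63, and 4 further immune lists lie between 0.20 and 0.29.

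Of the genes wholly on one side, those with the smallest unadjusted p all missed the threshold. The adjusted p in limma was 0.627 or more for every gene named here. Classes left out of naming made up 19.9% of the genes wholly above and 29.8% of those wholly below, against 21.9% of all genes. Only a part of the rest is described. Esp38 was higher by 0.28 ± 0.07, and Prss55, Micalcl and Panx3 were at -0.31 ± 0.06, -0.26 ± 0.05 and -0.34 ± 0.08. Stx11, a syntaxin needed for the release of cytotoxic granules, was higher by 0.27 ± 0.05 with 4.53, 4.63 and 4.62 in the Combination against 4.22 to 4.45. Katna1, a microtubule-severing ATPase, was higher by 0.37 ± 0.09 with 6.38, 6.33 and 6.32 against 5.79 to 6.15, or 0.22 when its probe sets were averaged. Map3k14, the kinase of noncanonical NF-kB signalling, was higher by 0.33 ± 0.09, and Nid2 of the basement membrane by 0.25 ± 0.07.

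On the lower side Msc, a basic helix-loop-helix repressor, read 5.61, 5.67 and 5.70 in TMZ, 5.82, 5.61 and 5.46 in Anti-PD-1 and 5.31, 5.11 and 5.29 in the Combination. The Combination arrays lay below all others, Control included. The difference from the single agents was -0.41 ± 0.08, or -0.13 when the gene's probe sets were averaged. Zfp872 was lower by 0.54 ± 0.13 and Fam71a by 0.46 ± 0.08. S100a8, an alarmin of neutrophils, was at -0.33 ± 0.08 but read at most 2.93 on any treated array, and its partner S100a9 was at 0.14 ± 0.16. Of the 275 genes wholly below, 65.5% were dimmer than the median gene, and their median level was 4.95. Of the 156 wholly above, 45.5% were dimmer than the median gene, and their median level was 6.00. Among genes at an unadjusted p under 0.05, 72.8% of the 386 higher and 84.1% of the 611 lower were dimmer than the median gene.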

How the data were processed

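The authors deposited log2 signals made with RMA in the Affymetrix Expression Console, per the submitters' processing notes; versions are not given in the sources used here. RMA subtracts background and gives every array the same distribution of values, so a shift shared by most genes is lost. The table held 41345 probe sets. Probe sets with exactly 1 symbol in the platform annotation (23521) were kept, and the brightest one per gene, giving 22180 genes without a brightness filter. A mean per group was fitted to all 12 arrays with limma 3.58.1 in R 4.3.3 (8 residual degrees of freedom, eBayes defaults, two-sided, Benjamini-Hochberg over all genes, threshold 0.05). Errors are limma's SEs. Exact permutation tests used 84 splits of 9 arrays. The script was tested on simulated data. Arrays carry no read depth, and 3 per group limits the precision.

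Named genes were up to 12 per direction whose Combination arrays lay on one side of all 6 others, with the smallest p where few passed, up to 3 per list at an unadjusted p under 0.05, and 10 genes always. Predicted and receptor segment genes were left out. Other genes were named after their values were seen. The members and the 48 lists (831 of 924 entries measured) were chosen with earlier results of these data known. Lists are described by counts and medians. Replicate numbers in the titles were not found to pair arrays. Alternatives concerned moderation, arrays fitted, probe set choice, brightness, centring, weights, a neuron score and each array left out.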

Additional observations from a re-analysis of the deposited data

How the results depend on the processing

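With 3 arrays per group, no gene passed in any of the 22 alternatives. The smallest adjusted p in limma ranged from 0.0994, when only the 11090 genes above the median level were tested, to 0.898 with the neuron score as covariate, and genes at an unadjusted p under 0.05 numbered 337 (the brighter genes) to 1205, or 1872 where all 41345 probe sets were tested. Among the brighter genes 175 were higher and 162 lower at that level. No pairing by replicate number was established: deviations of arrays with the same number correlated from -0.13 to 0.065 and those with different numbers from -0.097 to 0.11. With the replicate number as a replicate block, 0 genes passed and 1002 had an unadjusted p under 0.05. Directions were followed only for the 74 genes named by rule, not for the others in the text. These 74 kept their direction except the following. Slc7a11 was at -0.0015 with probe sets averaged and Mki67 at -0.11 with the neuron score. With 1 array left out, Mki67 ranged from -0.0070 to 0.16, Cd8a from -0.018 to 0.12, Gzmb from -0.16 to 0.11 and Mgmt from -0.14 to 0.026. The cause was not tested.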

Other observations

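The lowest value of the whole contrast belonged to Tph2, the rate-limiting enzyme of neuronal serotonin synthesis, picked after its values were seen. It read 5.06, 6.19 and 4.21 in TMZ, 4.71, 6.13 and 6.09 in Anti-PD-1 and 6.33, 3.96 and 3.91 in the Combination, a difference of -0.66 ± 0.57. The spread within each group was as large as the difference, and the Combination held both the highest and the lowest of the 9 arrays.

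Metabolic and housekeeping lists gave small medians. Oxidative phosphorylation had 9 of 24 members higher (median -0.0069 log2 units), cytosolic ribosomal proteins 11 of 20 (0.014), cholesterol biosynthesis 10 of 15 (0.012), hypoxia and glycolysis 6 of 16 (-0.0061) and heat shock proteins 8 of 13 (0.027).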
